A study of Arabidopsis thaliana with 10 samples.

Results

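Of the 38540 H3K27ac peaks that were called over 4 stages of flower development in *Arabidopsis thaliana*, 361 (0.937%, 95% Wilson interval 0.845 to 1.04%) had their summit, the position of highest enrichment, outside every protein-coding gene and no more than 1 kb before the start site of transcription (TSS) of such a gene. These promoter-summit peaks were chosen by the measured position of the summit, so their position is a description and not a finding. The lists of S0, S2, S4 and S8 held 126 of 11583, 70 of 8608, 81 of 9114 and 84 of 9235 of them, and these peaks fell into 160 loci when overlapping peaks of the 4 lists were joined. Assigning each to the closest downstream TSS named 160 genes, 3 of which had 2 loci, and 37 of the peaks lay within 1 kb of a second TSS.

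All groups were inflorescence tissue of the pAP1::AP1-GRap1cal line in the Ler background, in which the AP1 promoter drives a fusion of AP1 to the glucocorticoid receptor and the *ap1 cal* mutations hold the apex in an inflorescence-meristem state until daily 2 µM dexamethasone releases flower formation. S0 was collected before the first induction (day 0, inflorescence meristem), S2 at day 2 (flower stage 2), S4 at day 4 (stages 4 to 5) and S8 at day 8 (stages 7 to 8). Each stage had 2 ChIP replicates, and 2 input libraries without antibody, of stages 2 and 4, served as control. One peak list per stage was called by the authors on the pooled replicates, so no value per replicate exists, no difference between stages was tested, and the intervals given cover counting error over peaks only. The same locus can hold a peak in up to 4 lists. Intervals over all stages count such peaks as independent, which can make them too narrow. Library depth cannot be read from these lists. The S0 list is the longest, and depth and stage cannot be told apart in a count of peaks.

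The labelled tissue was checked against marker genes. Of 7 meristem markers, 5 held an intragenic summit at S0, among them STM and CLV1, and 3 did at S8. Of 6 floral organ markers, 2 held one at S0, S2 and S4 and 4 did at S8, where AP3 was added, and of 9 markers of root, guard cell, seed and pollen only the root genes SCR and SHR, which other organs also use, held one. WUS, PI and AG held none at any stage. Members could be placed on repeated sequence, defined as at least 50% of the 32-mers within 100 bp of the summit occurring again in the genome. This was so for 20 of the 360 members whose sequence could be read (5.56%, 3.62 to 8.42%) against 1.61% of all peaks.

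Acetylation of lysine 27 of histone H3 is placed at enhancers of animal cells mainly by CBP-type acetyltransferases. It competes with the Polycomb methylation of the same residue. In *Arabidopsis thaliana* it lies mostly just downstream of the start of active genes rather than upstream of it. The annotated genes that are not protein-coding were therefore read at each summit. One such class is the small nucleolar RNAs (snoRNAs), which guide the chemical modification of ribosomal RNA. C/D box snoRNAs, named for a C box near the 5′ end and a D box near the 3′ end, direct 2′-O-methylation, and H/ACA snoRNAs direct pseudouridylation. Plant snoRNA genes often stand in clusters that are transcribed as 1 precursor, and their promoters, like those of ribosomal protein genes, are known for telo boxes (AAACCCT).

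The sequences that carry the main result are snoRNA genes that held a summit and the stretches upstream of their clusters. They are given 5′ to 3′ on the strand of the snoRNA, from RefSeq TAIR10.1, whose nuclear chromosomes have the lengths of TAIR10. In the snoRNA genes, capitals mark every TGATGA (the common letters of a C box) and every CTGA (those of a D box), as letters found and not as tested sites. SNOR37-2 (chr4:8713226-8713353, minus strand, annotated as a C/D box snoRNA), upstream of AT4G15260, held the summit at all 4 stages. AT2G08905 (chr2:15890231-15890327, minus strand, annotated as AtsnoR27), upstream of SOUL-1, held it at S0, S4 and S8, and AT1G20015 (chr1:6941285-6941373, plus strand), upstream of TUB5, at S0.
SNOR37-2: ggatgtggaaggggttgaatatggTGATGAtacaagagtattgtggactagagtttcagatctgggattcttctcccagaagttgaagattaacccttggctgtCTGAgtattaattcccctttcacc
AT2G08905: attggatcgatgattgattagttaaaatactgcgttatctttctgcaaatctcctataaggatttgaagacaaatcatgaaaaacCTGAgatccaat
AT1G20015: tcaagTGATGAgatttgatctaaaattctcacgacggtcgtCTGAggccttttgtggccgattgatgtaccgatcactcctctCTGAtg

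The next sequences are stretches that end at the first snoRNA gene of a cluster. A promoter summit at all 4 stages was found at 18 snoRNA loci, of which 11 had a telo box in this stretch, 7 had both a telo box and TATAAA, and 7 had no telo box. The first 5 shown are from the 7 that hold both. The stretches before AT1G06233 and AT3G50825 also hold both and are not shown. The last, upstream of SNOR37-2 (chr4:8713354-8713554, minus strand), was picked because it has no whole telo box. It opens with accct, the end letters of AAACCCT, and the bases before that edge were not searched. Capitals mark the telo box (AAACCCT or its reverse complement AGGGTTT) and TATAAA on either strand. The first 5 clusters begin at AT1G19373 (chr1:6696977-6697177, plus strand), AT1G20015 (chr1:6941084-6941284, plus strand), AT5G02295 (chr5:4866115-4866315, plus strand), AT5G07725 (chr5:20795522-20795722, plus strand) and AT2G08910 (chr2:15890474-15890674, minus strand), and lie upstream of AT1G19380, TUB5, SNL2, AT5G51170 and SOUL-1.
Before AT1G19373: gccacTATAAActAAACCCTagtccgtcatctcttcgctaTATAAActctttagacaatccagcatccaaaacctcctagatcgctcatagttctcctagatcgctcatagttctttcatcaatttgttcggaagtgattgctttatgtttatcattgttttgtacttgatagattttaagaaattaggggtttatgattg
Before AT1G20015: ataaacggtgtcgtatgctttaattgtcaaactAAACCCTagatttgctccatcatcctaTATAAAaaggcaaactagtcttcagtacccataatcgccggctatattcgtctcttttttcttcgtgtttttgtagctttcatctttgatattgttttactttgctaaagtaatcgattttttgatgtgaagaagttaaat
Before AT5G02295: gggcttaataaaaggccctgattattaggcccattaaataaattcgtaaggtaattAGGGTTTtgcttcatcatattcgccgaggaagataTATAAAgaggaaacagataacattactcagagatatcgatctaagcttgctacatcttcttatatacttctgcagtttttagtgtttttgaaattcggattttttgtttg
Before AT5G07725: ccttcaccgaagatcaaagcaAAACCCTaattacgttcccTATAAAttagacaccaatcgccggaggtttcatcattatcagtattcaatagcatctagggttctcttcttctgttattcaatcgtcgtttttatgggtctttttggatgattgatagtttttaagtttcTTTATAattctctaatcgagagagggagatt
Before AT2G08910: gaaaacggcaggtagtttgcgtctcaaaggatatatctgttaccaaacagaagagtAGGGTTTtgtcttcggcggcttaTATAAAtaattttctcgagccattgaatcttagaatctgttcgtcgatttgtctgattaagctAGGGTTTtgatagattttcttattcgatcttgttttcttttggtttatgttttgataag
Before SNOR37-2: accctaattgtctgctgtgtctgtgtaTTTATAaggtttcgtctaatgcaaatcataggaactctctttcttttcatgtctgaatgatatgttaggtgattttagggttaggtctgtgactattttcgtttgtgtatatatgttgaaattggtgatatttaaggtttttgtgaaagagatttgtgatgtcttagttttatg

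Annotated genes that do not code for protein held 213 of the 361 summits (59.0%, 53.9 to 64.0%), although such genes cover only 5.18% of the promoter sequence of the genome. By type, 75 summits were on long non-coding RNA (lncRNA) genes, 51 on genes annotated as ncRNA, 34 on snoRNA genes, 21 on misc_RNA genes, 26 on pseudogenes, 15 on transcribed pseudogenes and 1 on a miRNA gene, and a summit on genes of 2 types counts under both. No summit was on a tRNA, snRNA or rRNA gene. Among S0 summits the share on such genes was 53.2% (44.5 to 61.7%), among S2 summits 64.3% (52.6 to 74.5%), among S4 summits 61.7% (50.8 to 71.6%) and among S8 summits 60.7% (50.02 to 70.5%). All 4 intervals overlapped. Without summits on repeated sequence the share over all stages was 61.0%.

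**Figure D1:**
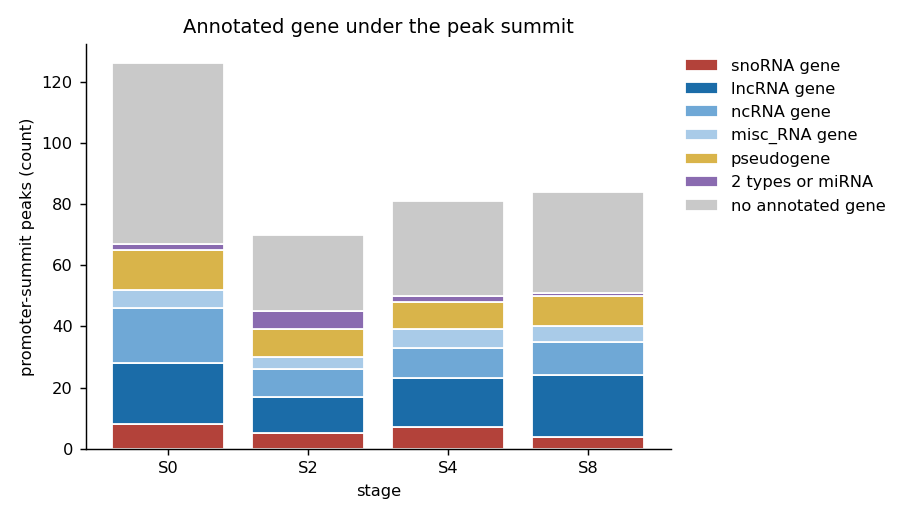
Number of promoter-summit peaks (y axis, count) at each stage (x axis), split by the annotated gene under the summit. Bars stand for 126, 70, 81 and 84 peaks, and 46.8, 35.7, 38.3 and 39.3% of them, in stage order, had a summit on no annotated gene.

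Small nucleolar RNA genes cover 0.0461% of promoter sequence and held 34 of the 361 summits (9.42%). Counting the whole peak, 94 of the 361 members (26.0%, 21.8 to 30.8%) overlapped a snoRNA gene. In the S0 list 22 of 126 members (17.5%) did so, against 0.725% of all S0 peaks. For S2 this was 23 of 70 (32.9%) against 0.871%, for S4 24 of 81 (29.6%) against 0.823% and for S8 25 of 84 (29.8%) against 0.845%. Of intragenic peaks 0.268% overlapped a snoRNA gene, a class that by its rule has the summit in a coding gene, and of distal peaks 13.7% did. With peaks on repeats left out, an alternative added once the values were known, 26.4% of the members overlapped one. The 94 peaks formed 28 loci, which overlapped 65 of the 287 annotated snoRNA genes. At any stage, peaks of every class overlapped 195 of the 287 (67.9%), between 149 at S2 and 177 at S0, whereas 41 of 326 miRNA genes (12.6%) and 18.5% of lncRNA genes were overlapped.

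The snoRNA genes at these loci stood mostly in clusters. Joined where they lay within 300 bp on 1 strand, they formed 27 clusters of 1 to 5 genes, and 21 of the 28 loci had a cluster of at least 2. The largest, of 5 genes, lay upstream of AT4G15260 (with SNOR37-2 as the first), upstream of UBP27, where 1 cluster underlay 2 loci, and between AT1G29418 and PAI3. Clusters of 4 lay upstream of AGL65, UGT71B8 and SNL2. AGL65 encodes a MADS-box factor of pollen, and SNL2 a SIN3-type co-repressor of histone deacetylase complexes. In 18 of the 28 loci the snoRNAs were on the strand opposite to the downstream coding gene, so that their transcription runs away from it. How often this holds for other snoRNA genes in promoter sequence was not counted. Of the 94 summits, which came from these 28 loci, 78 (83.0%) lay downstream of the start of the first snoRNA gene. The median position of all 94 was 130 bp downstream of that start (quartiles 34 and 179 bp). The median distance of the same summits from the coding TSS was 526 bp. The snoRNA start is the annotated start of the gene, and a precursor may begin before it. The 2 distances are thus not taken from like points. These peaks were also chosen for overlapping a snoRNA gene, and the later genes of a cluster lie downstream of the first. The choice favours summits downstream of the first start, so no trait of the members is read from these positions.

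Peaks at the snoRNA loci had a median rank in the upper part of their lists. Fold enrichment is ranked here as the percentile of a peak within the list of its stage, because the lists were called separately. Raw values are printed as called and are not amounts to compare between lists. The median over the 94 peaks was the 74.8 percentile, against 53.7 over all 361 members, which include the 94. By stage, from S0 to S8, the median over the 94 was 79.3, 74.5, 67.0 and 77.7. Loci were typed by the joined span of their promoter-summit peaks, so wider peaks had more chances to overlap a snoRNA gene. The part of this choice in the ranks was not tested. At SOUL-1, which encodes a heme-binding family protein, the fold enrichment was 6.50, 5.32, 5.33 and 5.09 in stage order, which placed the peak at the 97.2, 97.2, 97.7 and 96.5 percentiles. The rank at SOUL-1 was thus high and nearly the same in all 4 lists. At UGT71B8, a UDP-glucosyl transferase gene, it was 5.89, 4.48, 5.44 and 4.55, at the 92.3 percentile or higher in each list. At TUB5, which encodes a beta-tubulin chain, it was 4.62, 4.63, 3.02 and 4.54, with S4 the lowest at the 57.5 percentile.

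At AT1G19380, a gene of a DUF1195 protein, the fold enrichment was 6.11, 3.92, 4.22 and 5.73. Its percentiles were 96.3, 84.2, 91.4 and 98.0 in stage order, highest at S0 and S8. The summits there lay within 28 bp of each other. At SWI2, where 3 snoRNA genes run away from the coding gene, the percentiles were 94.7, 83.8, 78.2 and 86.9. At AT5G51170, annotated as a U6 snRNA phosphodiesterase-like protein, the fold enrichment was 4.04, 3.25, 2.88 and 3.20, and the summits of the 4 lists fell within 14 bp, the narrowest spread of any locus with a promoter summit at all 4 stages. At SNL2 the fold enrichment was 3.38, 3.57, 3.32 and 3.99 and at AGL65 it was 4.51, 3.71, 3.97 and 3.20. By percentile, S8 was the highest list at SNL2 (86.7) and the lowest at AGL65 (64.5).

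At AT4G15260, a UDP-glycosyltransferase family gene, the fold enrichment from S0 to S8 was 6.03, 4.38, 4.07 and 4.11. The summit stayed within 37 bp over the 4 lists, inside SNOR37-2 each time. Between 64.7 and 72.4% of the 32-mers there occur elsewhere in the genome, so its reads cannot all be assigned to 1 copy, and it supplied all 4 of the snoRNA-overlapping peaks on repeated sequence. At the other end, the cluster between AT1G29418 and PAI3 was at the 0.130, 13.6, 48.3 and 77.7 percentiles in stage order, with the later lists higher. At CYCB1;3, a B-type cyclin of the G2 to M transition, the percentiles were 83.5, 53.1, 65.4 and 53.1. No replicate values bear on these differences.

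**Figure D2:**
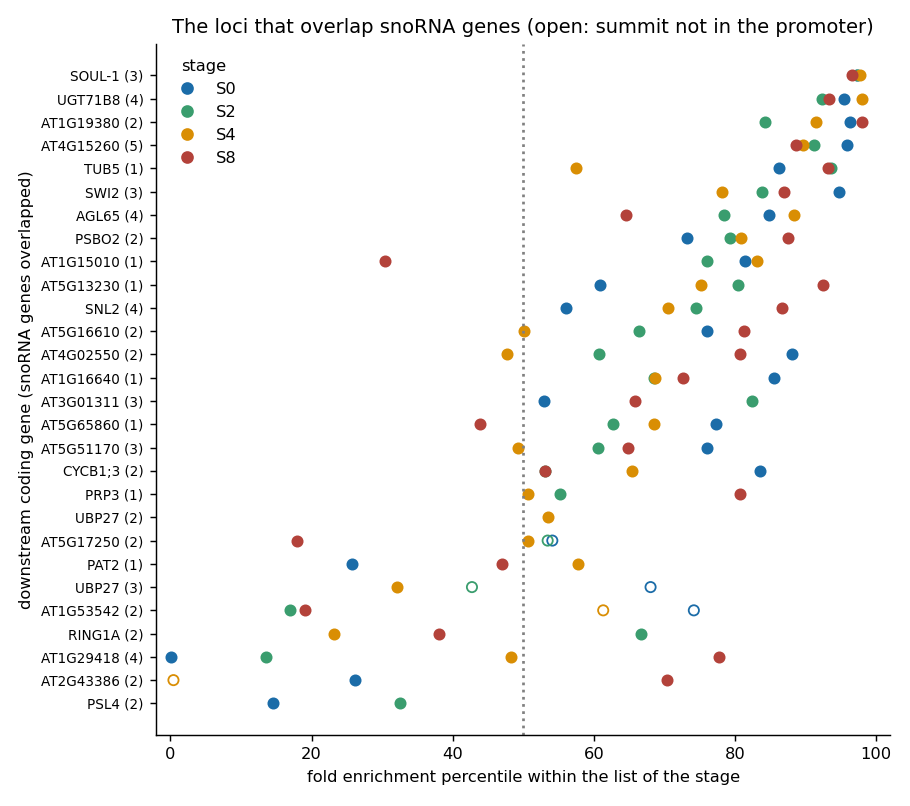
Fold enrichment percentile within the list of the stage (x axis) for the 28 loci that overlap snoRNA genes (y axis, named by the downstream coding gene, with the number of snoRNA genes overlapped), 1 point per stage, open where the summit was not in the promoter. Points of SOUL-1, UGT71B8 and AT4G15260 lie at 88.6 or above, and AT1G29418 spans 0.130 to 77.7.

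Of the 28 snoRNA loci, 20 (71.4%, 52.9 to 84.7%) carried a peak of any class at all 4 stages, against 50.8% of the 12579 regions formed by all peaks. A locus is the joined span of promoter-summit peaks only, so loci and regions are not like units. A promoter summit at all 4 was found at 18 (64.3%) and a peak at a single stage at 1. Each stage had a peak at 25 or 26 of the 28. A locus was typed by the joined span of its promoter-summit peaks. More or wider peaks therefore gave it more chances to overlap a snoRNA gene. RING1A, a subunit of Polycomb repressive complex 1, and PRP3, a proline-rich cell wall protein, lacked a peak at S0 and had one at S2, S4 and S8. At RING1A the fold enrichment was 3.38, 2.51 and 2.73 at these stages. At PSL4 a peak was called at S0 and S2 only, at the 14.6 and 32.6 percentiles.

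The stretches upstream of the clusters were searched for the motifs on both strands, a search added once the values were known. Over a stretch of the length printed above, the telo box was present upstream of the first snoRNA gene in 15 of 27 clusters (55.6%), in 23.7% of the same windows of all 287 snoRNA genes, which include later members of clusters, and in 6.16% of the windows upstream of all 27444 coding TSSs. Its median distance from the first snoRNA gene was 145 bp (7 to 199 bp), and in a shorter stretch it was found in 5 of 27. Telo box and TATAAA stood together in 11 of the 27 (40.7%), in 13.6% of windows of all snoRNA genes and in 2.42% of windows of coding TSSs. In 9 clusters with a telo box and TATAAA on the sense strand, the telo box nearest the gene lay upstream of the TATAAA nearest the gene in 6, 19 to 37 bp from it, as in the stretches before AT1G19373, AT1G20015, AT5G02295 and AT5G07725 printed above. In the stretch before AT2G08910 the nearest telo box lay downstream of TATAAA. The same order was found before AT1G06233 and AT3G50825, which are not printed. The 287 snoRNA genes include the first genes of these clusters, and first genes of other clusters were not counted apart. An annotated snoRNA start is also not a TSS, so the shares are not taken from like windows. No background share was counted for the shorter stretch. A motif match is a description of letters and not of a bound site.

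Within 100 bp of the summits of all members, TATAAA was present in 21.1% (17.2 to 25.5%), against 9.08% around intragenic summits and 41.1% upstream of coding TSSs. The telo box was present in 10.2% (7.53 to 13.8%), 12.1% and 6.16% of these windows, and the site II letters GGCCCA in 4.43%, 1.21% and 12.6%. GAGAGA was in 25.5% of member windows, the auxin response letters TGTCTC in 7.48%, the W-box core TTGAC in 26.9%, the G-box CACGTG in 1.94% and the CArG box of MADS factors in 0.554%. Intragenic windows held GAGAGA in 32.4%, TGTCTC in 13.5% and the CArG box in 1.06%. The median GC content of the windows was 37.3% in members, 42.8% in intragenic peaks and 31.3% upstream of coding TSSs.

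MicroRNA genes were overlapped by members at 5 places. MIR162a, whose product targets DCL1, the enzyme that makes miRNAs, lies between NF-YB12 and its divergent neighbour and was overlapped at all 4 stages. The fold enrichment there was 3.26, 3.77, 3.39 and 3.36 in stage order, at percentiles of 51.4, 80.0, 73.9 and 71.0, and the S8 summit lay on the miRNA gene itself. NF-YB12, a subunit of the CCAAT-binding factor NF-Y, held an intragenic summit of its own at each stage. MIR158a, upstream of ASD1, was also overlapped at all 4 stages, but low in each list, at the 21.4, 10.3, 44.1 and 11.1 percentiles. MIR391 was overlapped by a member at S2 only, MIR865 at S0, and MIR5642b by a S2 peak of 4430 bp at the ribosomal DNA end of chromosome 2, the widest member. The mature forms at the loci with peaks at all 4 stages, shown because they name the RNA made there, have the seed (bases 2 to 8) in capitals and are DNA letters. They lie on the minus strand at chr5:2634936-2634956, chr5:2634998-2635019, chr3:3366349-3366368 and chr3:3366391-3366411, in this order. The 4 seeds differ.
miR162a-3p: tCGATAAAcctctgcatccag
miR162a-5p: tGGAGGCAgcggttcatcgatc
miR158a-3p: tCCCAAATgtagacaaagca
miR158a-5p: cTTTGTCTacaattttggaaa

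In lncRNA and ncRNA genes, 128 pairs of a summit and a gene (56 genes) had the summit a median of 298 bp downstream of the start of the non-coding gene (quartiles 232 and 380 bp). In misc_RNA genes the median was 266 bp over 21 pairs, in pseudogenes 241 bp over 26 and in transcribed pseudogenes 308 bp over 15. Some summits lay far from the start of a long gene. Over 1000 bp away were 11 of the 128 lncRNA and ncRNA pairs and 9 of the 41 pseudogene pairs. The lncRNA gene AT2G42365, 5378 bp long, held the summit 3168 to 3212 bp from its start in all 4 lists, and the pseudogene AT2G11240, 6063 bp long, 5639 to 5776 bp from its start in all 4. For intragenic summits of the same lists the median distance from the coding TSS was 394 bp (quartiles 304 and 551 bp, 37318 peaks). The genes are of limited length, 932 bp in the median for ncRNA and 1362 bp for lncRNA, which bounds the distance. Of the 128 pairs, 95 (74.2%, 66.0 to 81.0%) had the non-coding gene on the strand opposite to the downstream coding gene. The same share over all non-coding genes in promoter sequence was not counted, so no trait of the members is read from it.

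**Figure D3:**
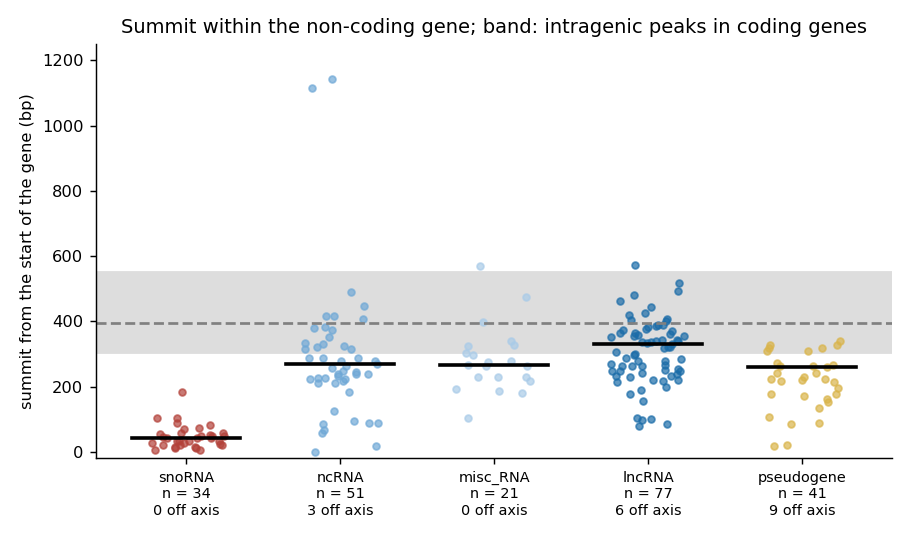
Distance of the summit from the start of the non-coding gene that holds it (y axis, bp) by gene type (x axis), 1 point per pair of peak and gene, with the median as a black line and, in grey, the quartiles and median of intragenic peaks in coding genes (304, 551 and 394 bp). The lncRNA median of 330 bp lies inside the grey band, the ncRNA median of 269 bp under it, and snoRNA genes are too short to reach it. Of the pairs, 3 in ncRNA, 6 in lncRNA and 9 in pseudogenes lie above the axis and are counted under it.

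The locus of AT3G54363 was among the 2 members of highest fold enrichment in each list. At AT3G54363, which encodes an uncharacterized protein, the fold enrichment was 7.99, 5.14, 5.83 and 6.31 from S0 to S8, between the 96.5 and 99.1 percentiles of the 4 lists. The summit was on the neighbouring ncRNA gene AT3G54366 at S0 and S4, 702 and 730 bp from the coding TSS, and on no annotated gene at S2 and S8, 110 and 38 bp from it. Upstream of AT2G18740, a small nuclear ribonucleoprotein gene, the ncRNA gene AT2G18735 held the summit at all 4 stages, with fold enrichments of 5.55, 3.98, 4.58 and 5.42 and the 85.5 percentile at S2 as the lowest rank. AT5G24735, upstream of the WD40 repeat gene AT5G24710, held it at all 4 stages between the 75.4 and 90.2 percentiles. At the AGL65 cluster the ncRNA gene AT1G18745, which lies over the snoRNAs on the same strand, held the summit at each stage.

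Other members of this group were seen at fewer stages. TAS2, the precursor of trans-acting siRNAs that target pentatricopeptide repeat genes and is cut through miR173, held a summit upstream of AT2G39690 at S0 only, with a fold enrichment of 2.45 at the 11.5 percentile. POLARIS (PLS), a short peptide gene of root growth, had its summit on the ncRNA gene AT4G39404 at S0, S2 and S4 with fold enrichments of 3.45, 2.60 and 2.38. SNC1, a TIR-NBS-LRR immune receptor, had one on AT4G16892 at S0, S2 and S8 with 3.12, 2.58 and 2.83. CKX6, a cytokinin oxidase, had one at S0 only, on an annotated natural antisense transcript of the gene itself, at the 13.6 percentile. U6-26, a spliceosomal U6 snRNA gene, was overlapped at S0 by a peak of 5.89-fold enrichment whose summit was 33 bp from the TSS of AT3G13857.

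Pseudogenes were the annotated type at 17 loci, 6 of which carried a promoter summit at all 4 stages. MUG4 and MUG5, members of the MUSTANG group of genes descended from transposases that this annotation lists as pseudogenes, were both among the members. MUG4, upstream of AT5G16500, held the summit at 5.12, 4.05, 2.83 and 3.25-fold enrichment, and MUG5, upstream of AT3G06950, at 2.95, 2.70 and 2.89-fold at S0, S2 and S8. A transcribed pseudogene upstream of the fucosyltransferase gene FUT8 held it at 5.57, 3.78, 3.27 and 3.62-fold. The S4 member with the highest fold enrichment, 5.87, lay on a transcribed pseudogene upstream of AT5G24060, was 265 bp wide and had no counterpart in the other 3 lists.

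Summits on no annotated gene made up 148 of the 361 (41.0%, 36.0 to 46.1%). They lay nearer to the coding TSS, with a median of 454 bp against 562 bp for summits on another gene, and 24 of them against 6 were within 100 bp. Of the 148, 50 peaks (33.8%, 26.7 to 41.7%) reached over the TSS, against 39 of 213 (18.3%, 13.7 to 24.0%). Divergent coding genes flanked 82 of the 148 (55.4%, 47.4 to 63.2%) and 62 of the 213 (29.1%, 23.4 to 35.5%), while 44.7% of promoter sequence lies between divergent genes. Among the 54 loci that overlapped no other gene at all, 5 had a promoter summit at all 4 stages. One was HKL1, a hexokinase-like gene, with fold enrichments of 5.96, 3.49, 3.75 and 3.02, summits 727 to 901 bp upstream and an intragenic peak of its own at each stage. The other 4 were AT2G11035, AT4G19070, AT4G38310 and the interval between AT5G49645 and XK-2. Their percentiles ranged from 34.9 to 79.4 at AT2G11035, from 19.1 to 76.6 at AT4G19070, from 37.9 to 77.9 at AT4G38310 and from 30.4 to 69.8 at AT5G49645, and none reached the S0 rank of HKL1. The 121 bases centred on its S0 summit (chr1:18692857-18692977, plus strand) are shown because this was the highest rank at a locus without another gene, and capitals mark TATAAA, the one match to the motifs searched.
HKL1 at S0: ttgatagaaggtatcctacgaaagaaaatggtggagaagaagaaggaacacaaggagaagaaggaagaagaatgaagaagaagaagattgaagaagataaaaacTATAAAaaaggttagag

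The summits lay over the whole permitted range, from 1 to 996 bp upstream, with stage medians of 475, 535, 522 and 510 bp. Of the 361 peaks, 89 (24.7%, 20.5 to 29.4%) spanned the TSS of their gene, and the others ended a median of 299 bp before it. At the limits of the rule, the S0 summit at ELF8, a subunit of the Paf1 transcription elongation complex, was 1 bp upstream of the TSS at a fold enrichment of 2.76, and the nearest intragenic summit at S0, in HHP5, lay at the TSS itself at 3.68. At the far limit, HB33 at S8 was a member at 990 bp with 2.40-fold enrichment, and the nearest distal summit at S8, upstream of AT3G53600, was excluded at 1008 bp with 2.84-fold. UBP27 fell on both sides, with a member at 985 bp at S4 and a distal summit at 1020 bp at S0.

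**Figure D4:**
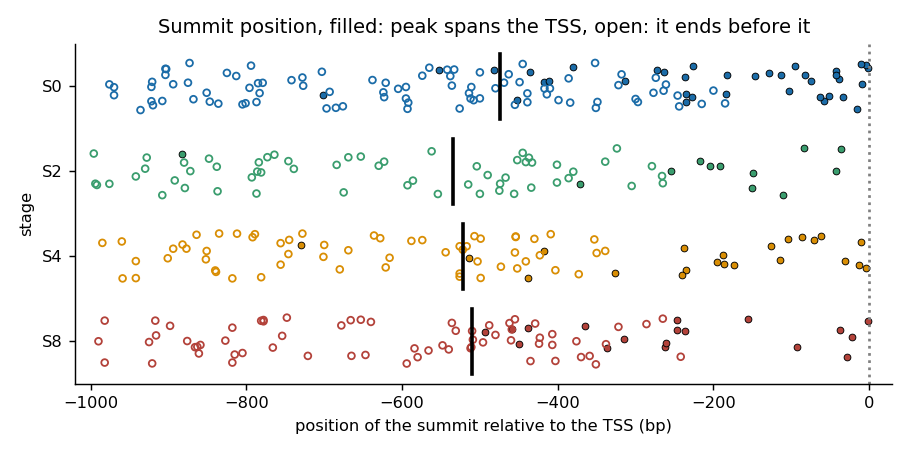
Position of each promoter summit relative to the TSS of its gene (x axis, bp, 0 is the TSS) by stage (y axis), 1 point per peak, filled where the peak spans the TSS and open where it ends before it, with the median as a black bar. Filled points have a median distance of 187 bp and open points one of 600 bp, and no open point is nearer than 185 bp.

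Over stages, 69 of the 160 loci (43.1%, 35.7 to 50.9%) carried a peak of any class at all 4 stages and 43 (26.9%) at a single stage. Of the 12579 regions formed by all peaks, 50.8% and 18.8% did, but these are not built like the loci, which join promoter-summit peaks only. Of the loci of a single stage, the highest at S0 was RIF10, a polyribonucleotide nucleotidyltransferase gene, at a fold enrichment of 4.09 (77.3 percentile), at S2 the MIR391 locus at 2.81, at S4 AT5G24060 at 5.87 and at S8 the RING/U-box gene AT5G37270 at 2.65. Of the 43, the S0 list held 30, S2 held 2, S4 held 5 and S8 held 6. The 2366 regions of a single stage formed by all peaks numbered 1630, 185, 239 and 312 in stage order, so the count at S0 is no result about these loci. A promoter summit at all 4 stages was found at 46 loci, where the summits of the lists lay within a median of 96.5 bp of each other (14 to 692 bp). At 36 loci the summit was promoter at 1 stage and intragenic at another, with the promoter summit at a median of 95.8 bp from the TSS against 533 bp at the other 124 loci. TCTP, for example, had its summit 13 bp upstream of the TSS at S4 and inside the gene at S0, S2 and S8. Peaks at loci of a single stage ranked low, with a median −log10 p percentile of 19.5, against 68.2 at the 46 loci. Whether their absence from the other lists reflects the threshold was not tested.

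Read by list, 45.2% of S0 members (36.8 to 53.9%) overlapped a peak at all 3 other stages, against 56.0% of all S0 peaks, and 23.8% (17.2 to 31.95%) overlapped none, against 14.1%. At S2 the shares were 77.1% of members against 76.1% of all peaks, and 2.86% against 2.15%. At S4 they were 72.8% against 70.6%, and 6.17% against 2.62%. At S8 they were 64.3% against 69.9%, and 7.14% against 3.38%. The S0 intervals exclude the value over all peaks, and so does the S4 interval for no overlap, whose lower bound is 2.67%. The S4 interval for all 3 stages, and the intervals of S2 and of S8 with a lower bound of 3.31% for no overlap, include it.

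By the type of gene at the locus, a peak at all 4 stages was found at 20 of 28 snoRNA loci, 23 of 55 loci with an lncRNA, ncRNA or misc_RNA gene (41.8%, 29.7 to 55.0%), 6 of 17 pseudogene loci (35.3%, 17.3 to 58.7%) and 17 of 54 loci without another gene (31.5%, 20.7 to 44.7%). A single stage was found at 1, 18, 4 and 19 of these. At S2, the shortest list, 25 of 28 snoRNA loci and 22 of 54 loci without another gene had a peak. No difference between these types was tested. The type was read over the joined span of the promoter-summit peaks of a locus. Loci with more or wider peaks thus had more chances to overlap another gene, which favours such contrasts. The median fold enrichment percentile of the peaks was 74.8 at snoRNA loci and 32.4 at loci without another gene. With peaks grouped by their summit instead, it was 56.0 on genes that are not protein-coding and 48.7 on no annotated gene.

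**Figure D5:**
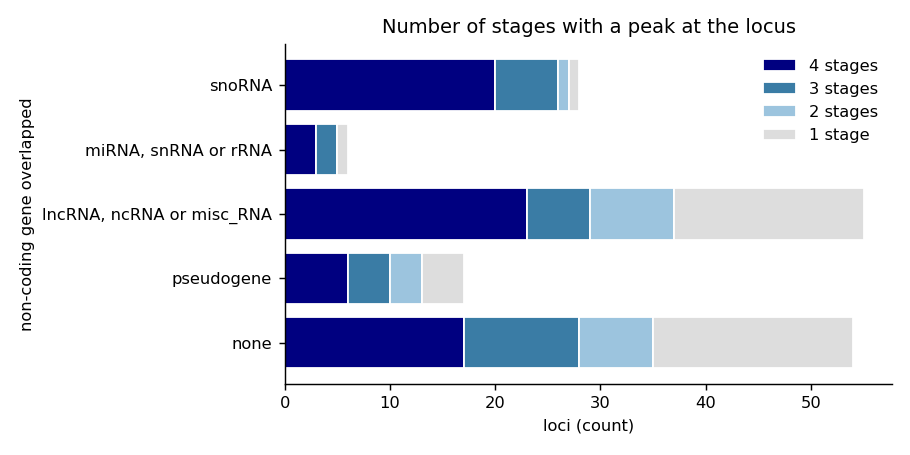
Number of loci (x axis) with a peak of any class at 4, 3, 2 or 1 stages, by the non-coding gene the locus overlaps (y axis, "none" for loci without one). Peaks at all 4 stages make up 20 of 28 snoRNA loci and 17 of 54 loci without another gene.

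Of the 361 members, 117 (32.4%, 27.8 to 37.4%) had a gene that also held an intragenic summit at the same stage, and 184 (51.0%) one at any stage. Peaks that spanned the TSS had such a gene in 5 of 89 cases (5.62%) and peaks that ended before it in 112 of 272 (41.2%, 35.5 to 47.1%). A peak that spans the TSS already covers the start of the gene. No member belonged to any of the 121 floral and meristem regulators of the list used (0 of 121, upper Wilson bound 3.08%), against 160 of 27444 coding genes (0.583%). Of the 121, 61 (50.4%) carried a peak of some class, against 12194 of all coding genes (44.4%). Ribosomal protein genes had none of 344 with 293 (85.2%) marked in some class, histone genes none of 115 and heat shock genes none of 111. Kinase genes had 9 of 1388, transcription factor or DNA-binding genes 2 of 821, F-box genes 1 of 653 and photosystem or chlorophyll genes 1 of 79. The last was PSBO2, a subunit of the oxygen-evolving complex, whose 2 upstream snoRNA genes were under peaks at the 73.2, 79.3, 80.8 and 87.5 percentiles. Genes of uncharacterized or hypothetical proteins had 33 of 2982 (1.11%, 0.789 to 1.55%), and pentatricopeptide repeat genes 6 of 262 (2.29%, 1.05 to 4.91%). Both of these lists were added once the values were known, so nothing is read from them.

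The largest −log10 p value of the members in each list came from the ribosomal DNA end of chromosome 2. At AT2G01023 it was 768, 87.9, 206 and 166 in stage order, with fold enrichments of 7.30, 2.87, 3.57 and 3.26. The summit window there had 75.9% of its 32-mers repeated at S0 and 24.1 to 41.2% at the later stages. At AT2G01021 the S2 member had a −log10 p of 110 at a fold enrichment of 2.56. The alignment allowed a read up to 10 matching positions and reported 1, so peaks of this array cannot be assigned to a copy, and the part of repeated sequence in their height was not tested.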

How the data were processed

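H3K27ac was profiled by ChIP-seq in 8 libraries (2 replicates of 4 stages) with 2 inputs. The authors mapped reads with Bowtie 1.1.2 to TAIR10 (2 seed mismatches, up to 10 places, 1 kept), removed duplicates with Picard 2.60, and called peaks on pooled replicates against combined inputs with MACS2 2.1.0 (p limit 0.01) with an IDR limit of 0.1. The deposited lists give a score, a fold enrichment over background (a ratio) and −log10 p and q values for each peak (q was not used). Fold enrichment and −log10 p were ranked within a list. They are also printed as called, and their order between lists is not a comparison of amounts. Library depth is unknown from these lists, so precision is that of the number of peaks.

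Genes came from RefSeq TAIR10.1 (37899 genes, 27444 protein-coding), whose models may differ from those the authors used. Summits were classed, peaks overlapping by 1 bp joined into loci, and repeated 32-mers and motifs counted within 100 bp of the summit, with Python 3.11.15, NumPy 2.4.6, pandas 2.3.3 and matplotlib 3.10.9. Intervals are 95% Wilson intervals. Scripts were tested on simulated data. The members and lists were chosen with earlier results of these data known. The genes named were loci with a promoter summit at all 4 stages, the 3 highest peaks per stage by fold enrichment and by −log10 p, summits on miRNA, tRNA, snoRNA or snRNA genes, members of the gene lists, the highest loci of 1 stage and the peaks at the limits. TAS2, PLS, SNC1, CKX6, MUG5, U6-26, MIR865, TCTP, PRP3, PSL4 and RING1A were otherwise chosen after their values were seen. Alternatives were the peak midpoint, other promoter lengths and gene sets, stronger peaks, joined peaks, reciprocal overlap, another repeat limit and shorter motif windows.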

Additional observations from a re-analysis of the deposited data

How the results depend on the processing

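No paired analysis was possible because each list pools both replicates, and for the same reason no replicate could be left out. A share was held to have stayed if inside the 95% interval of its main value and a count of loci if within 1.5 times: of 57 values under an alternative, 35 stayed and 22 moved. The promoter share of peaks (0.937%) was 1.14% by peak midpoint, 0.659% with genes of every type, 0.459% with 500 bp promoters, 1.43% with 2 kb and 0.841% with peaks within 500 bp joined. The 160 loci became 98 with 500 bp promoters and 86 in the top 50% of each list by −log10 p. Loci with a peak at all 4 stages (43.1%) were 55.7% by midpoint, 32.6% in the top 50% and 51.5% after joining. Loci with a promoter summit at all 4 stages (28.7%) were 19.0% by midpoint, 12.4% with genes of every type and 13.3% with 500 bp promoters. Peaks spanning the TSS (24.7%) were 39.9% after joining, and members above their list's median fold enrichment (54.8%) were 91.8% in the top 50%, by construction of that set. With windows reaching 50 bp to each side of the summit TATAAA was found in 14.7% of members, the telo box in 4.16%, GAGAGA in 11.4%, TGTCTC in 3.60%, TTGAC in 18.8% and the CArG box in 0.0%. In the shorter stretch upstream, the telo box was found in 18.5% of snoRNA clusters. The shorter windows lie inside the longer ones, so these shares could not rise. Neither the size of these falls nor the cause of the other moves was tested. The window upstream of snoRNA clusters and the snoRNA share without repeats were chosen after seeing the data.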
